A study of Mus musculus with 10 samples.

Results

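The 34 genes described here mark macrophages and, among them, the lipid-associated macrophages of fat. They were taken as a fixed list of symbols and found in the count table by their GENCODE M21 names. All 34 were present among the 26040 genes listed, and all 34 had enough counts to be among the 16446 genes tested. RNA was sequenced from epididymal white adipose tissue, the visceral fat pad beside the epididymis, of C57BL/6 mice. The Ad-Sucnr1 KO group (5 mice, called knockout) was knocked out for Sucnr1, the succinate receptor gene, in adipocytes, and the Sucnr1fl/fl group (5 mice, called control) carried floxed Sucnr1 alleles. The labels name neither the Cre driver nor the age, diet or litter of the mice, and the receptor gene of macrophages themselves was not the stated target. Libraries are named by the number in their titles, from 2 to 6 in each group.

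Macrophages are abundant immune cells of fat. Resident ones lie along blood vessels, take up debris through scavenger receptors such as CD163 and MRC1, and depend on the growth factor receptor CSF1R and the transcription factor PU.1, the product of Spi1. Lipid-associated macrophages gather around dying adipocytes, mainly in obesity, and carry the lipid receptor TREM2, which signals through the adaptor TYROBP and the kinase SYK and goes with raised lysosomal and lipid-handling genes. Succinate released by tissues acts on its receptor on macrophages as well as adipocytes, so the comparison asks what the fat pad's macrophage transcripts look like when adipocytes lose it.

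Total counts ran from 24182798 to 30603326 per library. Sucnr1 reached at most 4.67 CPM (counts scaled to library sizes that were adjusted by the trimmed mean of M-values) in the knockout libraries and stood at 38.0 CPM or more in the controls. Of all genes tested, 10 passed a Benjamini-Hochberg adjusted p of 0.05 with edgeR's quasi-likelihood test. RNA of other organs was present in both groups. The epididymal gene Crisp1 ran from 1.29 to 3574 CPM in knockout libraries and from 18.8 to 8572 CPM in control libraries, the vas deferens gene Akr1b7 stood at 5106 CPM in control 3 and 807.5 CPM in control 2, and the liver gene Alb stood at 4310 CPM in knockout 6. Of 10 adipocyte markers, 9 were higher in the knockout group, and their summed level ran from 20180 to 26740 CPM in knockout libraries and from 12700 to 27590 CPM in control libraries. All 6 endothelial markers were lower, with sums of 493.1 to 650.4 CPM in knockout libraries and 546.4 to 991.9 CPM in control libraries. The part of the tissue's cell makeup in the macrophage values was not tested.

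Most macrophage genes had lower fitted levels in the knockout group, but none passed the test. Of the 34, 28 were lower and 6 higher, so 82.4% were lower, against 55.2% of all genes tested. The median log2 fold change was -0.16 over the 34 genes and -0.03 over all genes. Many members were high or low together in a library, so the 34 are not independent observations. Between libraries of a group, the median deviation of the 34 genes had an SD of 0.20 on the log2 scale. No member passed an adjusted p of 0.05 with edgeR, where 0.0608% of all genes did, or with DESeq2, where 1.41% of 15100 genes did. At an unadjusted p under 0.05 there were 2 members with edgeR, Fcgr1 and Mertk, which is 5.88% against 10.1% of all genes, and 3 with DESeq2, the third being Cd9, where 12.5% of all genes did. Leaving out knockout 3 brought the median to -0.09, the only single library that moved it by more than 1.5 times. With no member passing, no decrease is established here. In whole tissue, macrophage number, RNA per macrophage and dilution by RNA of other cells cannot be told apart.

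**Figure D1:**
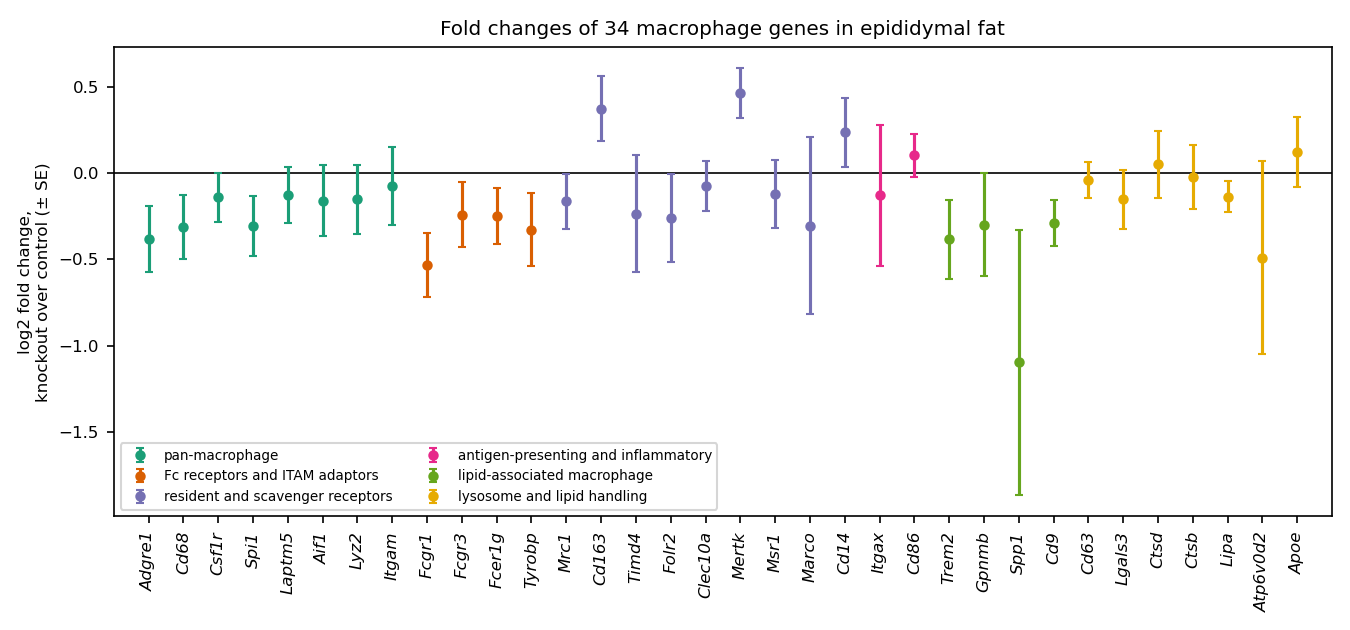
Each point is the log2 fold change of 1 gene, knockout over control, with its standard error from edgeR (5 libraries per group), colored by the gene's role. All 8 pan-macrophage genes, all 4 Fc receptor and adaptor genes and all 4 lipid-associated genes sit below 0, whereas Cd163, Mertk, Cd14, Cd86, Ctsd and Apoe sit above it.

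Levels between genes were compared per kilobase of exon (RPKM). Apoe, which encodes the lipid carrier apolipoprotein E and is made by adipocytes and liver as well as macrophages, was the most abundant member at 1141 RPKM in knockouts and 1049 RPKM in controls. Lyz2, Ctsd and Ctsb followed, also above 100 RPKM in controls. Another 15 members lay between 10 and 100 RPKM in controls, among them Tyrobp at 35.5 RPKM in knockouts and 44.6 RPKM in controls. The remaining 15 were under 10 RPKM, with Trem2 at 1.16 and 1.52 RPKM and Spp1 at 0.594 and 1.27 RPKM in knockouts and controls. The order puts the lipid-associated receptor Trem2 far below the resident receptor Mrc1, which had 27.4 RPKM in knockouts and 30.7 RPKM in controls. Lengths here join all annotated exons, 4946 bases for Trem2 and 6371 for Mrc1. RPKM is too low for a gene whose main transcript is much shorter than that, so the size of this gap is uncertain. Before division by length, Trem2 had 5.76 and 7.52 CPM and Mrc1 174.5 and 195.7 CPM in knockouts and controls.

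**Figure D2:**
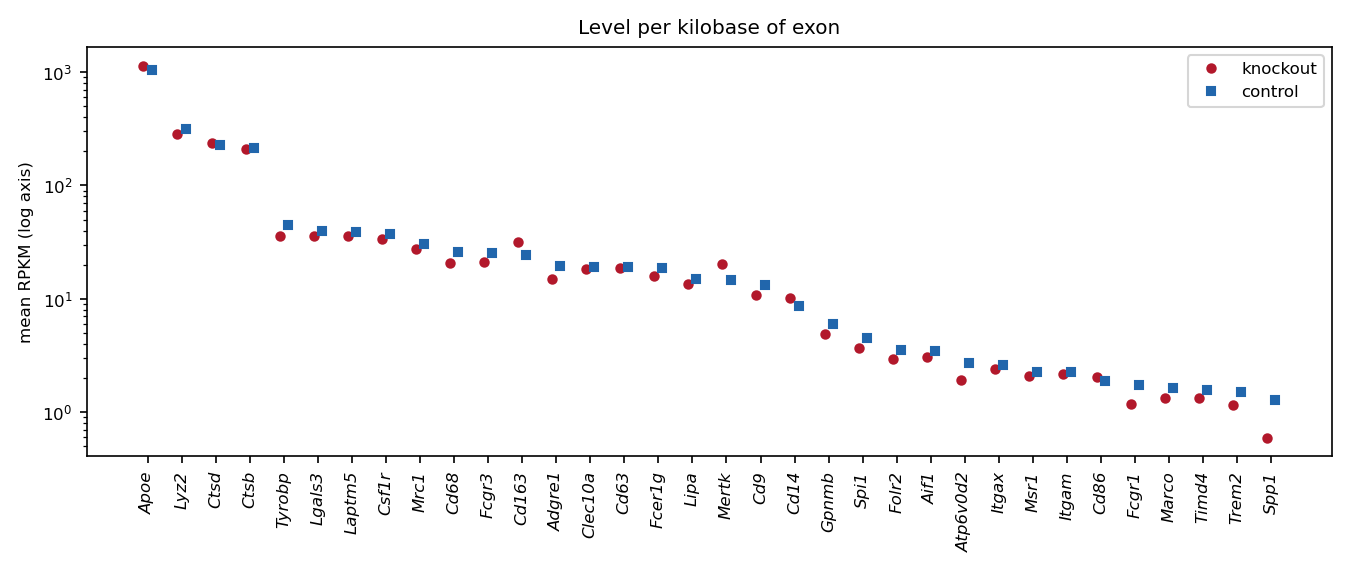
Mean level per kilobase of exon (RPKM, log axis) of each member in knockout (circles) and control (squares) libraries, 5 each, ordered by the control mean. Apoe, Lyz2, Ctsd and Ctsb stand apart at the top, and Fcgr1, Marco, Timd4, Trem2 and Spp1 are the 5 lowest. The order depends on lengths that join all annotated exons of a gene.

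The sequences just upstream of the gene starts are given for 5 members on which the results turn: the marker Cd68, the receptor Fcgr1, the lipid-associated receptor Trem2, and Cd163 and Mertk, whose fold changes had the opposite sign. They are 250 bases before each RefSeq gene start (GRCm38.p6, the mm10 build), written 5′ to 3′ along the gene. Capitals mark GAGGAA or its reverse complement TTCCTC, the core that PU.1 favours.
Cd68, chr11:69666171-69666420, minus strand: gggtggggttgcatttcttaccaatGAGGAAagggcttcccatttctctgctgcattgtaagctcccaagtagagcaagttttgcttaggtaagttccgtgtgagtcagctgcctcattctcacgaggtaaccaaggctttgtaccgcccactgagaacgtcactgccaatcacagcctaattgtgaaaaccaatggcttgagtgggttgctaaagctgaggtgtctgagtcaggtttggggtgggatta
Fcgr1, chr3:96293970-96294219, minus strand: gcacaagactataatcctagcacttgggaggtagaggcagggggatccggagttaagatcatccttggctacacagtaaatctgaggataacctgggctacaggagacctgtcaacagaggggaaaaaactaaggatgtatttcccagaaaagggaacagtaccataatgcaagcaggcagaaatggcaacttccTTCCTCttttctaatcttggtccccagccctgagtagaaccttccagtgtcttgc
Trem2, chr17:48346151-48346400, plus strand: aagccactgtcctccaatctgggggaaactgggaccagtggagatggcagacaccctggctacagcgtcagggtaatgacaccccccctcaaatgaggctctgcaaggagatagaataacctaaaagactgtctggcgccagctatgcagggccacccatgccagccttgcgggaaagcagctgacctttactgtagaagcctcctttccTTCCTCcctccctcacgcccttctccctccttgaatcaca
Cd163, chr6:124304401-124304650, plus strand: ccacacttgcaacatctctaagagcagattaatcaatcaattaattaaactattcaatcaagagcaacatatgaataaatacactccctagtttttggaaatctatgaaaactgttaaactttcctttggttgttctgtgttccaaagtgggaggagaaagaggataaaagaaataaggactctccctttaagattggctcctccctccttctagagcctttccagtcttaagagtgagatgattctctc
Mertk, chr2:128698665-128698914, plus strand: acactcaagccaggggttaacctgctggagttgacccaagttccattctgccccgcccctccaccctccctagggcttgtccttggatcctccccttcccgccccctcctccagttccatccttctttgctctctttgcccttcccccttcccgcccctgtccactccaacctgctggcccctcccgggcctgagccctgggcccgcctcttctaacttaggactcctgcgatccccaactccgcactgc
The RefSeq table matched 24 of the 34 members by symbol. GAGGAA, searched on both strands, lay in 13 of these 24 windows (54.2%), against 23.3% of the 32817 windows of the same length in the table. The 5 windows printed do not show the spread of matches over fold changes. Lyz2, Fcer1g, Timd4, Folr2, Itgax, Gpnmb, Cd9 and Lgals3 had lower knockout means and no GAGGAA. Of the members with higher knockout means and a window, Cd163, Mertk and Ctsd had none and Apoe had 1. CACGTG, the palindromic E-box that the lysosomal regulators MITF and TFEB recognise, lay in 1 of the 24 windows (4.17%), that of Ctsd, against 6.02% of all windows. No member window held both. A match describes letters only and shows no binding, and the windows without a match say nothing about either factor.

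All 8 genes expressed by nearly all macrophages had lower knockout means, and none passed. Adgre1 encodes the surface marker F4/80 and is annotated at chr17:57358691-57483527, plus strand (GENCODE M21, mm10). It had 44.3, 33.6, 41.9, 63.7 and 56.1 CPM in knockouts 2 to 6, against 51.7, 81.1, 64.4, 66.1 and 49.2 CPM in controls 2 to 6. The groups overlapped, with 3 knockout libraries below every control. This gave a log2 fold change of -0.38 (SE 0.19; edgeR adjusted p = 0.52). Cd68, a lysosomal glycoprotein whose upstream window is given above, averaged 25.9 ± 5.8 CPM in knockouts and 32.2 ± 7.1 CPM in controls (SD, n = 5 each). Both defining markers were thus present in every library and differed by less than 1.5 times between the group means.

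Spi1, which encodes PU.1, had 9.78, 7.98, 8.45, 13.7 and 9.17 CPM in knockouts 2 to 6, against 11.3, 13.8, 10.8, 15.0 and 9.78 CPM in controls 2 to 6. Knockouts 3, 4 and 6 lay below every control, knockout 2 matched control 6 to 3 digits with 279 counts each, and knockout 5 lay within the control range (log2 fold change -0.31, SE 0.17, edgeR adjusted p = 0.556). At least 4 knockout libraries lay below every control for Fcgr1 and, by that narrow margin, Spi1, which is 5.88% of the members against 4.13% of all genes.

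The other pan-macrophage genes differed by less. Csf1r, the receptor for the growth factors CSF1 and IL-34, averaged 195 ± 20 CPM in knockouts and 215 ± 44 CPM in controls. Laptm5, a lysosomal membrane protein of blood cells, Aif1, the actin-binding protein IBA1, Lyz2, lysozyme, and Itgam, the integrin CD11b, had log2 fold changes of -0.13, -0.16, -0.15 and -0.08. Without control 3, Laptm5 had -0.037, Lyz2 -0.001, Csf1r -0.047 and Itgam 0.15. The median of the 8 genes was -0.16 with all libraries, -0.10 without control 3 or knockout 3, -0.25 without control 6 and -0.24 without knockout 6. Lyz2 shares much of its sequence with Lyz1, which was itself counted at 101 ± 19 CPM in knockouts and 92.6 ± 17.4 CPM in controls, and reads could be divided between them. Csf1r overlaps exons of Hmgxb3 on the other strand, and Ctsb overlaps Fdft1, so reads of these pairs are uncertain where counting did not use strand.

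Fc receptors and their signalling adaptors were lower in all 4 cases (median -0.29 on the log2 scale, and -0.16 without control 3). Fcgr1 encodes the high-affinity receptor for immunoglobulin G and is annotated at chr3:96282909-96293969, minus strand. It had 3.15, 2.43, 2.55, 3.73 and 3.52 CPM in knockouts 2 to 6, against 4.01, 6.07, 3.90, 3.88 and 4.42 CPM in controls 2 to 6. These rest on 71 to 158 counts per library. It was the only member whose groups did not overlap, 1 of 34 or 2.94%, against 0.9% of all genes lying wholly lower. The margin was narrow and rested on library scaling, with 3.73 CPM from 105 counts in knockout 5 and 3.88 CPM from 103 counts in control 5. No member lay wholly higher, as 1.01% of all genes did. The log2 fold change of Fcgr1 was -0.53 (SE 0.18; edgeR unadjusted p = 0.0157, adjusted p = 0.436; DESeq2 adjusted p = 0.168), and was -0.25 without the 5 libraries with the most Crisp1, an alternative chosen after seeing the data. Fcgr3, a low-affinity receptor, and Fcer1g, the gamma chain that both receptors signal through, had log2 fold changes of -0.24 and -0.25. Tyrobp, the DAP12 adaptor of TREM2, averaged 23.7 ± 5.3 CPM in knockouts and 29.8 ± 8.4 CPM in controls, with control 3 highest at 41.8 CPM.

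The receptors of resident macrophages did not lean one way. Knockout means were lower for 6 of these 9 genes and higher for 3, and none passed. Mrc1, the mannose receptor CD206, had 189, 139, 170, 175 and 200 CPM in knockouts 2 to 6 and 170, 263, 215, 186 and 145 CPM in controls 2 to 6, with a log2 fold change of -0.17. Folr2, a folate receptor of perivascular macrophages, and Clec10a, a lectin that binds galactose sugars, had -0.26 and -0.08. Msr1, scavenger receptor A, had -0.12. All of these ranges overlapped. Without control 3, the log2 fold changes of Mrc1, Folr2 and Clec10a were -0.042, -0.043 and -0.0092, and without knockout 3 those of Clec10a and Msr1 were -0.0014 and -0.0149.

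Mertk, a receptor tyrosine kinase that takes up dying cells, was higher in 4 of 5 knockout libraries than in any control. The gene is annotated at chr2:128698956-128802894, plus strand. It had 76.4, 85.9, 112, 63.7 and 98.0 CPM in knockouts 2 to 6, against 56.9, 57.3, 69.6, 62.7 and 70.1 CPM in controls 2 to 6. Only knockout 5 lay among the controls, and 4.14% of all genes had at least 4 knockout libraries above every control. This gave a log2 fold change of 0.46 (SE 0.14; edgeR unadjusted p = 0.00927, adjusted p = 0.417; DESeq2 adjusted p = 0.0993). Its sign held under all 16 alternatives, where its log2 fold change ran from 0.36 to 0.55.

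Cd163, the scavenger receptor for haemoglobin bound to haptoglobin, also had a higher mean in the knockout group. The gene is annotated at chr6:124304656-124330527, plus strand. It had 171, 136, 209, 140 and 208 CPM in knockouts 2 to 6, against 104, 173, 159, 129 and 103 CPM in controls 2 to 6. Knockouts 4 and 6 lay above every control and the other 3 lay among them (log2 fold change 0.37, SE 0.19, edgeR adjusted p = 0.526). Its log2 fold change lay between 0.29 and 0.48 under all 16 alternatives. Cd14, the co-receptor for lipopolysaccharide, averaged 17.7 ± 3.4 CPM in knockouts and 15.1 ± 4.4 CPM in controls. Knockout 6, which held RNA of liver, was its highest library. The log2 fold change of Cd14 was 0.24 with all libraries and 0.13 without knockout 6.

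Levels were also set relative to Adgre1 in the same library, and the mean ratio was higher in the knockout group for 28 of the 33 other members. That count largely follows from the divisor and is no separate result. Adgre1 had a log2 fold change of -0.38, against a median of -0.16 over the members. The ratio of Cd163 to Adgre1 was 3.85, 4.05, 4.99, 2.19 and 3.71 in knockouts 2 to 6, against 2.01, 2.14, 2.47, 1.95 and 2.09 in controls 2 to 6. The ratio of Mertk to Adgre1 was 1.72, 2.56, 2.67, 1.00 and 1.75 in knockouts 2 to 6, against 1.10, 0.707, 1.08, 0.948 and 1.43 in controls 2 to 6. In both, knockout 5 alone lay within the control range. Such a pattern, with at least 4 knockout ratios above every control, held for 6 of the 33 members beside Adgre1 (18.2%), namely Csf1r, Lyz2, Mrc1, Cd163, Mertk and Cd86, and for 13.5% of all genes, and Adgre1, the divisor, had itself a lower knockout mean. No member's 5 knockout ratios all lay above the controls, as they did for 2.0% of all genes, or all below them, as for 0.0426%. The ratio of Cd68 to Adgre1 averaged 0.546 ± 0.051 in knockouts and 0.517 ± 0.055 in controls.

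**Figure D3:**
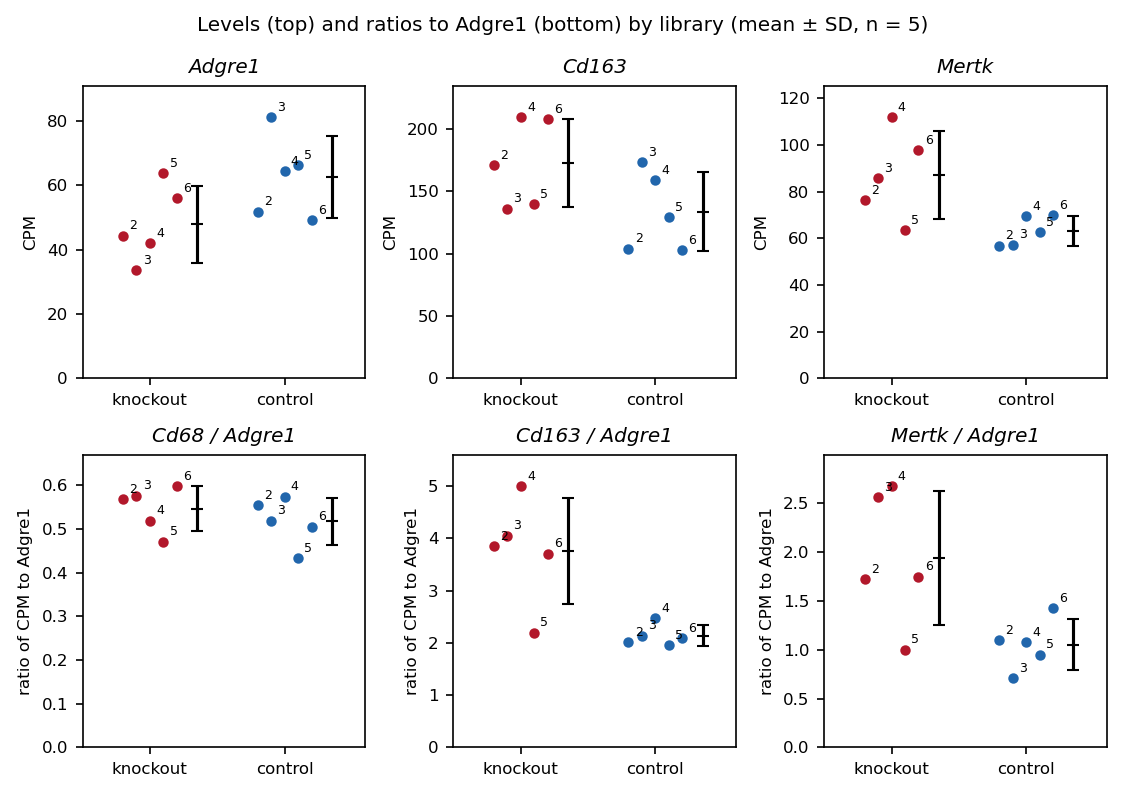
Top, CPM of Adgre1, Cd163 and Mertk in each knockout (left) and control (right) library, with numbers naming the libraries and bars giving mean ± SD (n = 5). Bottom, ratios of Cd68, Cd163 and Mertk to Adgre1 in the same libraries. Mertk runs from 63.7 to 112 CPM in knockouts and from 56.9 to 70.1 CPM in controls, and its ratio overlaps the controls only in knockout 5.

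Both Cd163 and Mertk are known targets of glucocorticoids in macrophages. Among 9 glucocorticoid receptor targets listed after earlier results were known, 6 had higher and 3 lower knockout means (median 0.77 on the log2 scale). The lower ones were Sgk1, Dusp1 and Mt2, with log2 fold changes of -0.28, -0.23 and -0.04. Per1, which is also a clock gene and had the smallest p of the list, had 110, 107, 133, 80.8 and 118 CPM in knockouts 2 to 6, against 54.7, 55.9, 74.5, 79.6 and 58.2 CPM in controls 2 to 6. Among the knockouts, knockout 5 was lowest for 4 of the 9 (Per1, Klf15, Fkbp5 and Mt1), and knockouts 2, 3 and 4 were lowest for the other 5. Mertk was lowest in knockout 5 and Cd163 in knockout 3. No gene of this list passed over all genes, and its part in the values of Cd163 and Mertk was not tested.

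Timd4 and Marco, which mark long-lived resident and liver macrophages, were scarce. Timd4 had 2.28, 2.53, 2.23, 2.84 and 4.60 CPM in knockouts 2 to 6, against 2.69, 2.499, 6.67, 2.26 and 2.95 CPM in controls 2 to 6. Marco rested on 21 to 149 counts and varied 6.47-fold between libraries. Knockout 6, with the highest Timd4 of the knockouts, also held the liver RNA, and Clec4f, which marks Kupffer cells, was at 3.79 CPM there and at most 0.113 CPM in every other library. The part of liver macrophages in these values was not tested. Without knockout 6 the log2 fold change of Timd4 was -0.47, and without control 4 it was 0.16, against -0.24 with all libraries.

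All 4 lipid-associated macrophage genes were lower (median -0.34 on the log2 scale, against -0.16 for the 8 pan-macrophage genes). Trem2, annotated at chr17:48346401-48354147, plus strand, had 5.61, 4.42, 5.39, 8.50 and 4.88 CPM in knockouts 2 to 6, against 4.85, 10.7, 7.13, 7.61 and 7.36 CPM in controls 2 to 6. Knockout 5 was the only knockout library above 6 CPM and control 2 the only control below it. This gave a log2 fold change of -0.38 (SE 0.23; edgeR adjusted p = 0.58), which was -0.23 without control 3 and -0.13 without knockout 6 and controls 3 and 6, the libraries with the most Alb, Akr1b7 and Crisp1. Relative to Adgre1, Trem2 averaged 0.121 ± 0.019 in knockouts and 0.120 ± 0.021 in controls (SD, n = 5 each).

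Gpnmb, a glycoprotein of lysosome-rich macrophages, had 27.7, 29.99, 13.6, 54.2 and 32.5 CPM in knockouts 2 to 6, against 41.6, 27.1, 41.3, 41.7 and 42.5 CPM in controls 2 to 6. Knockout 5 was above every control, knockout 4 was below every control, and the other 3 knockouts were above control 3 but below the rest (log2 fold change -0.30, SE 0.30, edgeR adjusted p = 0.734). Its log2 fold change was -0.58 without knockout 5 and -0.11 without knockout 4. Cd9, a tetraspanin that many cell types share, averaged 22.0 ± 4.6 CPM in knockouts and 26.9 ± 2.0 CPM in controls, with knockouts 2, 3 and 4 below every control (log2 fold change -0.29, SE 0.13, edgeR adjusted p = 0.498). Spp1, which encodes osteopontin, had 0.280, 0.753, 0.216, 1.85 and 1.79 CPM in knockouts 2 to 6, against 0.976, 1.15, 4.75, 0.415 and 3.19 CPM in controls 2 to 6. It rested on 6 to 134 counts, and its log2 fold change of -1.10 had an SE of 0.77, the widest of all members, and was -0.55 without control 4.

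**Figure D4:**
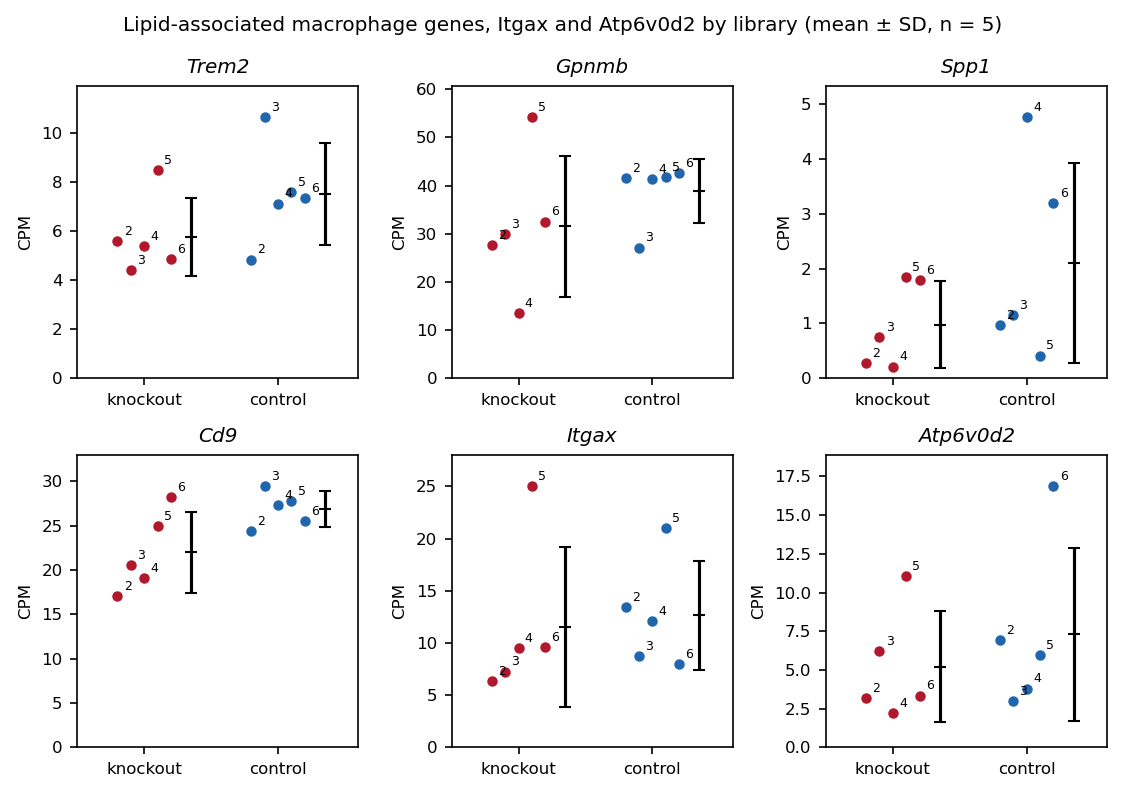
CPM of Trem2, Gpnmb, Spp1, Cd9, Itgax and Atp6v0d2 in each knockout (left) and control (right) library, with numbers naming the libraries and bars giving mean ± SD (n = 5). Knockout 5 is the highest knockout library for Trem2, Gpnmb, Spp1, Itgax and Atp6v0d2, and is second to knockout 6 for Cd9.

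The gap between the lipid-associated and pan-macrophage medians was -0.18 on the log2 scale. Between libraries of a group, the same difference, taken from median deviations, had an SD of 0.32. The 4 Fc receptor and adaptor genes also had a lower median than the pan-macrophage genes, at -0.29. Without knockout 5 the gap was -0.35, without knockout 6 it was -0.12 and without control 6 it was -0.10. The lipid-associated median itself was -0.58 without knockout 5. The choice of genes was made with earlier results known, so the gap is given as a description.

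Itgax and Cd86 mark antigen-presenting and inflammatory macrophages and dendritic cells. Itgax, the integrin CD11c, had 6.34, 7.26, 9.53, 25.0 and 9.61 CPM in knockouts 2 to 6, against 13.4, 8.73, 12.1, 20.99 and 7.96 CPM in controls 2 to 6. Its log2 fold change was -0.13 with all libraries and -0.63 without knockout 5, and its sign turned without knockout 2 (0.02) or control 5 (0.13). Cd86, a costimulatory ligand for T cells, averaged 7.46 ± 0.81 CPM in knockouts and 6.95 ± 0.97 CPM in controls.

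Lysosomal and lipid-handling members differed little between the groups. Ctsd and Ctsb, the lysosomal proteases cathepsin D and B, had log2 fold changes of 0.05 and -0.03. Lipa, the lysosomal acid lipase that frees cholesterol and fatty acids, averaged 92.0 ± 6.7 CPM in knockouts and 101 ± 12 CPM in controls. Cd63, a tetraspanin of lysosomes, and Lgals3, the galactose-binding protein galectin-3, had log2 fold changes of -0.04 and -0.15. Apoe had 2369, 2009, 2073, 2561 and 3184 CPM in knockouts 2 to 6, against 2666, 1658, 2816, 2455 and 1617 CPM in controls 2 to 6, and its highest library was the one with liver RNA. Without knockout 6 its log2 fold change was 0.01, against 0.12 with all libraries.

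Atp6v0d2, a proton pump subunit of macrophages and osteoclasts, had its highest level in a single control. It had 3.19, 6.20, 2.23, 11.1 and 3.35 CPM in knockouts 2 to 6, against 6.93, 2.999, 3.79, 5.96 and 16.9 CPM in controls 2 to 6. Control 6 also held the most Crisp1, at 8572 CPM. Its fold change on the log2 scale was -0.49 (SE 0.56) and turned to 0.08 without control 6. The part of epididymal RNA in this value was not tested.

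Some libraries were high or low for many members at once. Control 3 was the highest of the 10 libraries for 15 of the 34 members and knockout 3 the lowest for 14. Knockout 3 stood above the mean for only 4 members, and its median deviation from each gene's mean was -0.40 on the log2 scale. Control 4 was above the mean for 30 members, and control 6 was the lowest library for 9. The range of the summed pan-macrophage level was 631 to 925 CPM in knockouts and 650 to 1210 CPM in controls. Control 3 also held the most Akr1b7, and knockout 3 held the second most Crisp1 of all libraries, and the part of these tissues in the macrophage values was not tested.

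Knockout 5 differed from the other knockouts in which genes were high. It was the highest of all libraries for Itgax, Gpnmb and Lgals3 and was above the mean for 25 of the 34 members, while its Mertk was the lowest among the knockouts. Its median deviation was 0.56 for the 4 lipid-associated genes and -0.06 for the 9 resident and scavenger receptors. Control 5, second highest for Itgax and Lgals3, had 0.23 and -0.20 for the same groups. Knockout 6, which held the liver RNA, had 0.10 for the lipid-associated genes and 0.42 for the resident receptors. The part of liver RNA in that profile was not tested.

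**Figure D5:**
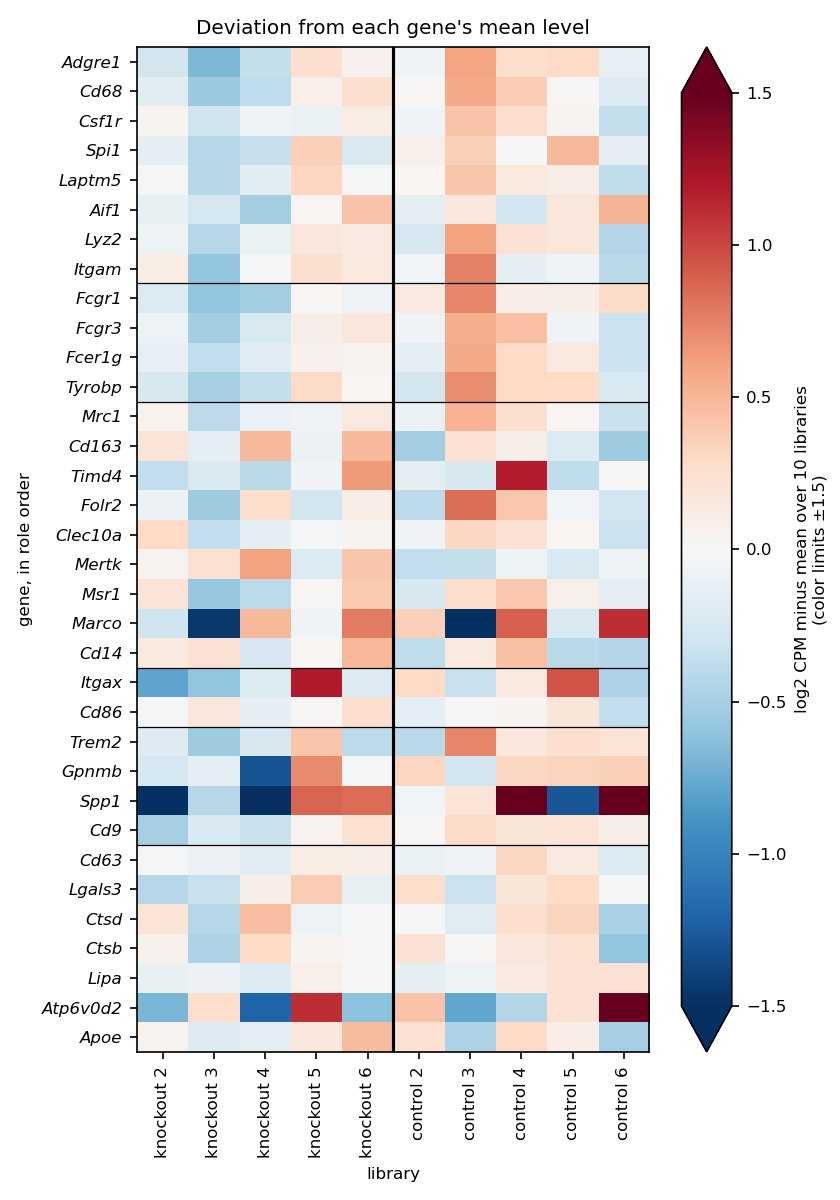
Each cell gives a gene's log2 CPM in 1 library minus its mean over the 10 libraries, with knockout libraries left of the black line and control libraries right of it, and genes in role order. Knockout 3 is above the mean for only 4 members and control 4 for 30, and the rows of Cd163 and Mertk are highest in knockout 4.

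Signalling partners of the members leaned lower without any call. Of 14 genes of TREM2 and Fc receptor signalling, 13 had lower knockout means (median -0.19 on the log2 scale). Syk, the kinase that both pathways recruit, averaged 72.8 ± 14.6 CPM in knockouts and 93.6 ± 11.2 CPM in controls (log2 fold change -0.36, SE 0.14, edgeR adjusted p = 0.446). Of 15 genes for complement, phagocytosis and the oxidase that makes superoxide, 11 were lower and 4 higher, with Cd93, which endothelium also expresses, at -0.43 and Ncf4, an oxidase subunit, at -0.40.

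The growth factors and transcription factors that sustain macrophages were divided, with 8 of 15 lower and a median log2 fold change of -0.01. The 3 with the smallest p were all higher, namely Cebpa, Tfeb and Cebpb at 0.40, 0.17 and 0.29, and Cebpa and Cebpb are also adipocyte factors. Of 25 further lysosomal genes, 19 were lower and 6 higher. Gla, alpha-galactosidase, and Hexa, a subunit of beta-hexosaminidase, had -0.45 and -0.22, whereas Npc1, which exports cholesterol from lysosomes, had 0.37.

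Cytokine genes were scarce. Of 12 activation genes listed, 10 were tested, of which 7 were lower and 3 higher, with log2 fold changes from -1.11 to 1.98. Il6 and Il10 stayed under 1 CPM in every library. Tnf averaged 0.419 ± 0.180 CPM in knockouts and 0.907 ± 0.312 CPM in controls, or -1.11 on the log2 scale (SE 0.36; edgeR unadjusted p = 0.0114, adjusted p = 0.432). Il1b averaged 0.621 ± 0.124 CPM in knockouts and 0.961 ± 0.155 CPM in controls (edgeR adjusted p = 0.436). Both genes were near the floor and their groups overlapped. Tnf had 0.676 CPM in knockout 5 and 0.631 CPM in control 6, and Il1b had 0.806 CPM in knockout 2 and 0.774 CPM in control 2.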

How the data were processed

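Stranded total RNA libraries were made from TRIzol extracts of the fat pad, per the labels' protocols. The authors deposited a table of whole-number read counts by Ensembl gene, without normalization, and the submitters' processing notes name STAR 2.5.2 and mm10. How reads were counted, with strand or without, is not given in the sources used here. Columns were matched to samples by title, and 25995 of 26040 identifiers had a GENCODE M21 symbol. Counts were filtered with filterByExpr (minimum count 10, minimum total 15), scaled by TMM and fitted with group as the only term in edgeR 4.0.16 (R 4.3.3, robust quasi-likelihood). P-values were adjusted by Benjamini-Hochberg over all 16446 genes. The common biological coefficient of variation was 0.412. CPM use the scaled sizes, and RPKM divide these by the union of exon lengths. Alternatives were DESeq2 1.42.0, its size factors, no filter, a replicate block, each library left out, 3 libraries with RNA of other organs left out and, chosen after seeing the data, the 5 with the most Crisp1. The steps were tested on simulated counts. No 2 libraries of a group agreed within sampling noise (chi-square per degree of freedom of 33.1 or more). Members and lists were chosen with earlier results of these data known. All members are named, with up to 3 genes of smallest p from other lists, and Clec4f, Lyz1, Il6, Il10, Ly6g, Mpo and the glucocorticoid targets were chosen after their values were seen. The result of 1 gene taken by this rule is not reported here.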

Additional observations from a re-analysis of the deposited data

Results flagged for a closer look

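In 68 sets of 5 libraries (34 genes in 2 groups), 7 had a library whose gap to its nearest neighbour exceeded 0.71 of the set's range (Dixon's test). Chance flags about 1 set in 20 where sets are independent and values normally distributed. These were CPM without a log, and members moved together within libraries, so the 7 cannot be weighed against that rate. Among knockout libraries, Itgax stood at 25.0 CPM in knockout 5, against 6.34 to 9.61 CPM in the other 4. Timd4 stood at 4.60 CPM in knockout 6, which held the liver RNA, against 2.23 to 2.84 CPM in the other knockouts. Among controls, control 3 was high for Itgam, the integrin CD11b, at 18.2 CPM against 8.17 to 10.5 CPM, and for Fcgr1 at 6.07 CPM against 3.88 to 4.42 CPM, and was low for Gpnmb at 27.1 CPM against 41.3 to 42.5 CPM. Control 4 was high for Timd4 at 6.67 CPM against 2.26 to 2.95 CPM. Control 6 was high for Atp6v0d2 at 16.9 CPM against 2.999 to 6.93 CPM.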

How the results depend on the processing

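No member passed the threshold under any of the 16 alternatives, and 24 of the 34 kept their direction in all of them. The number of members lower in the knockout group ran from 25 to 29 and stood at 28 with the replicate block. Calls over all genes numbered 213 with DESeq2, 4 with the replicate block, 3 without the 5 libraries with the most Crisp1, and 3 to 18 when 1 library was left out, against 10. Same-numbered libraries correlated at 0.377, -0.113, 0.632, 0.436 and -0.0961 in their deviations for numbers 2 to 6. Knockouts 4 and 5 matched their same-numbered controls best, whereas knockouts 2, 3 and 6 matched other controls best. These values cannot decide whether the animals were paired, since RNA of other organs also enters them. The labels state no pairing, and the main fit used none. Without knockout 6 and controls 3 and 6, log2 fold changes turned for Itgam (0.038), Cd86 (-0.0324), Ctsd (-0.123), Atp6v0d2 (0.0248) and Apoe (-0.238). Without the 5 libraries with the most Crisp1, a choice made after seeing the data, they turned for Aif1 (0.0774), Itgam (0.218), Cd86 (-0.0678), Ctsd (-0.153), Atp6v0d2 (0.186) and Apoe (-0.0179). Leaving out 1 library gave ranges across 0 for Itgax (-0.63 to 0.13), Itgam (-0.18 to 0.15), Ctsb (-0.151 to 0.0728), Ctsd (-0.073 to 0.149), Timd4 (-0.47 to 0.16), Cd63 (-0.0987 to 0.0379) and Atp6v0d2 (-0.964 to 0.0786). The cause was not tested. Depth limits Spp1 and Marco most, with as few as 6 and 21 counts in a library.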

Other observations

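Other myeloid cells could contribute to the members' counts, since Itgam, Itgax, Fcer1g and Tyrobp are shared with monocytes, dendritic cells, neutrophils and mast cells. Of 8 monocyte markers, 7 had lower knockout means and none passed, and their summed level ran from 215.9 to 365.4 CPM in knockouts and from 234.9 to 519.8 CPM in controls. The sum was highest in control 6 (519.8 CPM), control 3 (407.2 CPM) and knockout 3 (365.4 CPM). These libraries also had the highest sums of epididymis and vas deferens markers, and the part of those tissues was not tested. Cx3cr1, the fractalkine receptor of patrolling monocytes, averaged 2.31 ± 0.90 CPM in knockouts and 4.24 ± 1.51 CPM in controls (log2 fold change -0.88, SE 0.33, edgeR adjusted p = 0.451). Its highest libraries were control 6, at 5.75 CPM, and control 3, at 5.65 CPM. Plac8 had a log2 fold change of -2.53, but stood at 121 CPM in control 3 and 51.2 CPM in control 6, the libraries with the most Akr1b7 and Crisp1, and that part was not tested. Of 8 dendritic cell markers 7 were lower, with Cd209a at -0.38 and Itgae at 0.57.

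Of 8 neutrophil markers, 5 stayed under 1 CPM in every library, including Ly6g and Mpo. Of 7 mast cell genes tested, 5 were lower, with Cpa3, a mast cell protease, at 3.68 ± 1.49 CPM in knockouts and 6.08 ± 2.71 CPM in controls (SD, n = 5 each). Of 6 Kupffer cell markers tested, 2 were lower and 4 higher. Of the markers of serous cavity macrophages, 5 of 8 were lower and 3 higher, with a median log2 fold change of -0.06. The smallest p of that list belonged to Selp, which endothelium also expresses, at 3.97 ± 0.38 CPM in knockouts and 6.07 ± 1.19 CPM in controls (log2 fold change -0.61, SE 0.16, edgeR unadjusted p = 0.00276, adjusted p = 0.36).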
